A study of Mus musculus with 6 samples.

Results

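The comparison described here sets platelets of mice given CTC41.5G-EVs against platelets of mice given PBS. It was formed by subtracting the array titled for PBS from the array titled for CTC41.5G-EVs, 2 of the 6 Clariom D Mouse arrays of the study. EVs commonly stands for extracellular vesicles, the membrane-bound particles that cells release. The labels do not spell out the names CTC41 and CTC41.5G. The third platelet array, from mice given CTC41-EVs, served as a measure of how far platelet arrays lay apart, and the remaining 3 arrays held bone marrow megakaryocyte progenitors with the same treatments.

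Platelet RNA came from blood drawn by cardiac puncture into citrate, and the platelets of all mice of a group were pooled, so each treatment was 1 array and no difference could be tested. The labels do not state the strain, genotype, sex, age or number of the mice, or the dose, route and timing of the EVs. Per the labels' protocols, pools went to RNA isolation either directly or after microbeads had removed white and red blood cells, and the labels do not say which pools were treated so. All values below are log2 array signals as the authors deposited them, and a difference is the CTC41.5G-EVs signal minus the PBS signal on that scale. In pooled RNA, fewer cells of a type and less RNA per cell cannot be told apart.

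Platelets are small anucleate fragments shed by megakaryocytes. They carry RNA handed down from the megakaryocyte and make little or none of their own. Their surface receptors for collagen, von Willebrand factor, thrombin and ADP start activation, an actin and tubulin skeleton gives them their shape, and alpha-granules store chemokines, adhesive proteins and growth factors for release.

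Platelet markers lay well past the signal floor on every platelet array. The floor was the 75th percentile of all probes for the mean of the 3 platelet arrays, 4.88. Itga2b, the fibrinogen receptor's alpha chain, measured 9.47, 9.32 and 9.82 on the PBS, CTC41-EVs and CTC41.5G-EVs arrays. Markers of other cells were mixed. The B cell markers Cd79a and Ms4a1, the T cell markers Cd3e and Cd3g and the epithelial marker Epcam had means below the floor. The neutrophil marker Camp (5.85, 6.08 and 5.77), the monocyte marker Cd14 (5.42, 5.63 and 5.68) and the endothelial marker Cdh5 (5.22, 5.40 and 5.01) lay past it. Of the gene lists for other cells, 6 T and NK cell genes and 5 epithelial genes passed the floor, Cd7 (7.48, 7.22 and 7.79) and Ceacam1 (7.80, 7.64 and 8.08) among them. By sign, 4 of those 6 and 2 of those 5 were higher with CTC41.5G-EVs (median differences 0.07 and -0.04). The monocyte list had 4 of 11 higher (median -0.12) and the endothelial list 6 of 9 (median 0.14). Over all genes past the floor 50.6% were higher. Ceacam1, Cd14 and Cdh5 thus each went against the median of their list. The erythroid marker Alas2, an enzyme of haem synthesis, measured 9.88, 9.82 and 9.85, and the mean level over 31 erythroid genes was 6.23, 6.14 and 6.18. Haemoglobin probes, which name several globin genes each and so entered no count, did not share this level pattern: the beta-globin probe measured 12.29, 13.43 and 13.34 and an alpha-globin probe 12.71, 13.83 and 13.68, with PBS the low array. The part of red cell RNA in the results was not tested. The median over all probes was 4.0, 4.05 and 4.02, and the arrays correlated at 0.961 to 0.967 across probes, which are not independent replicates.

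Few genes were far apart between the arrays. Of 10148 genes past the floor, 78 (0.769%) were at least 1.5-fold higher with CTC41.5G-EVs and 130 (1.28%) at least 1.5-fold lower, 208 (2.05%) in all. A 2-fold difference was reached by 13 genes upwards and 9 downwards. For CTC41-EVs against the same PBS array, 264 genes (2.6%) were 1.5-fold apart, 50 (0.493%) higher and 214 (2.11%) lower, and between the EV arrays 366 (3.61%) were, 259 (2.55%) higher and 107 (1.05%) lower with CTC41.5G-EVs. The SD of the difference over genes was 0.226, beside 0.233 for CTC41-EVs minus PBS and 0.257 between the EV arrays. The array pair of interest was therefore no further apart than the other pairs of platelet arrays. Olfactory receptor genes, mostly silent in blood, gave another centring, with which 61 genes were higher and 173 lower. The genes nearest the 1.5-fold line were Mir7240 (0.59) just inside and Gm14348 (0.58) just outside it upwards, and 6030426L16Rik (-0.59) and Gm14652 (-0.58) downwards.

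**Figure D1:**
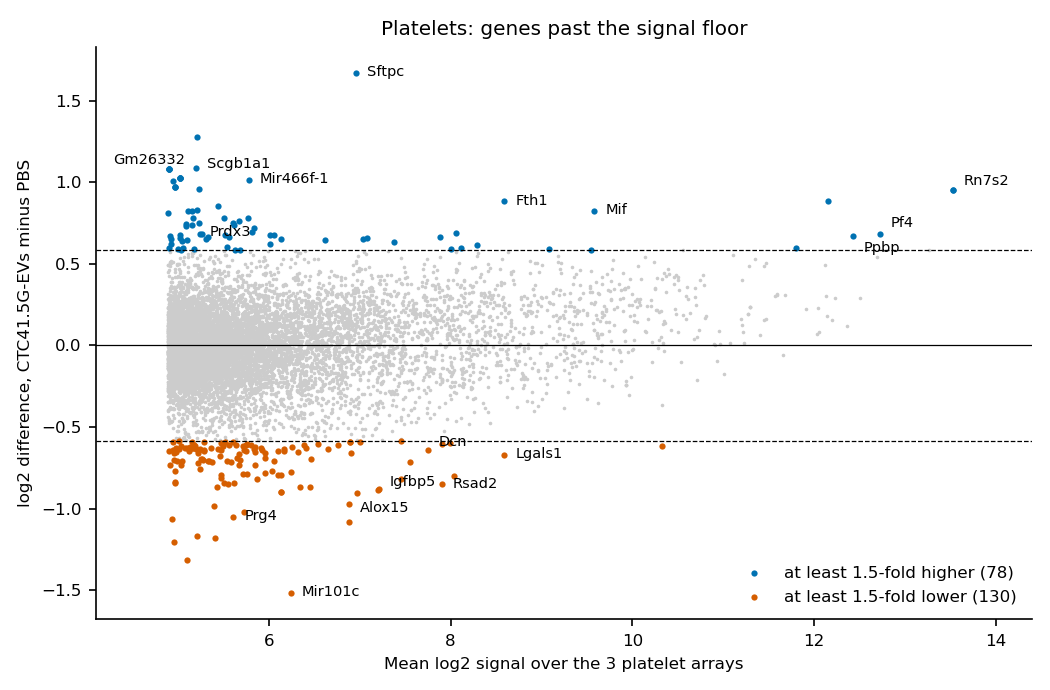
Each point is 1 of 10148 genes, with its mean log2 signal over the 3 platelet arrays on the horizontal axis and the log2 difference, CTC41.5G-EVs minus PBS, on the vertical axis; dashed lines mark 1.5-fold. The 78 higher (blue) and 130 lower (orange) genes lie mostly at low signal, with Sftpc at 1.67 and Mir101c at -1.52 as the ends of the range.

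The kinds of gene past the threshold differed from the makeup of all genes past the floor. Protein-coding genes were 67.8% of genes past the floor, but 26 of the 78 higher and 35 of the 130 lower genes. Small nucleolar RNA genes gave 18 of the higher genes, 9.42% of the 191 such genes past the floor. Of the 18, 15 lay in 1 run of genes between Ipw and Snrpn, with 7 distinct sets of values. Many of those passed the floor only through the high CTC41.5G-EVs array, so the 9.42% supports nothing. Outside that run and the one on the other side of Ipw, 3 of 170 were higher. Pseudogenes gave 63 of the lower genes, 3.57% of 1765, whereas 0.508% of protein-coding genes were lower. MicroRNA genes gave 6 higher and 12 lower of 319. On the PBS array, 34 of the 78 higher genes lay below the floor, and 35 of the 130 lower genes did so on the CTC41.5G-EVs array, so the size of these differences depends on background.

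The highest gene was Sftpc, which encodes surfactant protein C of alveolar type II cells. It measured 6.05, 7.09 and 7.72 on the PBS, CTC41-EVs and CTC41.5G-EVs arrays, a 3.18-fold difference between the first and the last. The PBS array was the low one, and CTC41-EVs lay between. Scgb1a1, the main secretory protein of airway club cells, measured 4.64, 5.22 and 5.72, in the same order. Its PBS signal was below the floor, so the size of its difference is not fixed. Of 12 lung surfactant and club cell genes measured, 10 were higher on the CTC41.5G-EVs array, and their mean level was 4.66, 5.02 and 5.17. Only 6 of the 12 passed the floor. Of these, 5 were higher, beside 50.6% of all genes past the floor, and 5 were also higher for CTC41-EVs minus PBS. Other members past the floor were much closer: Sftpb measured 5.17, 5.36 and 5.41, and the alveolar type I gene Aqp5 measured 5.31, 5.26 and 5.22. In progenitors Sftpc was below the floor of 5.23 used there and differed by -0.16. The part of lung-derived RNA in these values was not tested.

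Platelet alpha-granule genes were higher on the CTC41.5G-EVs array as a group. Of 22 genes past the floor, 18 were higher and 4 lower by sign, with a median of 0.31, beside 50.6% higher, 49.4% lower and a median of 0.00 over all genes. At 1.5-fold, 3 were higher and 0 lower. Pf4, platelet factor 4, measured 12.35, 12.78 and 13.04 on the PBS, CTC41-EVs and CTC41.5G-EVs arrays, a difference of 0.69. Ppbp, the precursor of the chemokine CXCL7, measured 12.10, 12.42 and 12.77, a difference of 0.67. For both chemokines PBS was the lowest array and CTC41-EVs the middle one.

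Tgfb1, the growth factor that platelets release in a latent form, measured 7.70, 8.0 and 8.30, a difference of 0.59 with the arrays in the same order. Lrrc32, which holds latent TGF-beta on the cell surface, measured 5.81, 5.74 and 6.40, a difference of 0.58 just under the line. Clu (9.96, 9.95 and 10.50), the adhesive proteins Thbs1 (10.63, 10.56 and 11.03), Vwf (8.24, 7.97 and 8.63) and Mmrn1 (8.64, 8.37 and 9.04), and F13a1 (8.60, 8.40 and 9.05) differed by 0.39 to 0.54. On these 5 genes CTC41-EVs lay at or below PBS, and CTC41.5G-EVs was the high array. Fibronectin, Fn1, was the member furthest the other way, at 7.47, 7.38 and 6.89. It is made by many tissue cells besides megakaryocytes.

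Ppbp and Pf4 are neighbouring genes, and the 250 bases before each start are shown because both chemokines lay past 1.5-fold on the same array. They are from RefSeq on GRCm38.p6, forward strand, Ppbp at chr5:90768268-90768517 and Pf4 at chr5:90772185-90772434. Capitals mark GGAAG on either strand, the core of ETS factor sites; GATAA, the core of GATA sites, was searched the same way.
Ppbp: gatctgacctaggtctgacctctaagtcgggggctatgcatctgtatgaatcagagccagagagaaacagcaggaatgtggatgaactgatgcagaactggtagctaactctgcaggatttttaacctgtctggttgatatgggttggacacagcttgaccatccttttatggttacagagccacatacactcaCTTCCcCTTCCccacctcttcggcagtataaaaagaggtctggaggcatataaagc
Pf4: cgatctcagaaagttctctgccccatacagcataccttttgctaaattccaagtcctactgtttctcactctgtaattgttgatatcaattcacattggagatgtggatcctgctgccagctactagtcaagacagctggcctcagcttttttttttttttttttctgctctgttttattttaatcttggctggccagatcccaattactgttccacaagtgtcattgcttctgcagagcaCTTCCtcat
GGAAG occurred 2 times before Ppbp, which 29.3% of 27025 promoter windows of this length match or exceed, and 1 time before Pf4, as in at least 63.6% of windows. GATAA occurred 0 times in both, while 23% of windows hold it.

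The receptors by which platelets sense injury were also higher, each by less than 1.5-fold. Of 26 receptor and adhesion genes past the floor, 24 were higher and 2 lower, with a median of 0.24 and 0 members past 1.5-fold in either direction. Over all genes past the floor 50.6% were higher, with a median of 0.00. Gp9, a subunit of the von Willebrand factor receptor, measured 9.01, 8.96 and 9.56, the largest difference of the list at 0.55. Cd9 (9.93, 9.84 and 10.42), Treml1 (9.27, 9.12 and 9.69), Itgb3 (9.75, 9.40 and 10.15) and Itga2 (7.30, 7.19 and 7.70) differed by 0.39 to 0.49. The CTC41-EVs array lay below PBS on these genes, so the median of the same list was -0.15 for CTC41-EVs minus PBS. The ADP receptor P2ry12 (10.37, 10.16 and 10.52) and the podoplanin receptor Clec1b (10.76, 10.57 and 10.85) differed by 0.15 or less.

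Cytoskeletal and proplatelet genes gave 38 higher and 2 lower of 40, with a median of 0.25, beside 50.6% higher over all genes past the floor. Actb, cytoplasmic actin, measured 10.23, 10.65 and 10.81, and Tubb1, the platelet beta-tubulin, 9.84, 9.71 and 10.19. Pfn1 (8.0, 8.32 and 8.49), Actn1 (7.37, 7.30 and 7.82), Tagln2 (9.20, 9.29 and 9.64) and Flna (8.49, 8.31 and 8.87) differed by 0.39 to 0.48. None of the 40 reached 1.5-fold. Genes of activation signalling gave 35 higher and 5 lower of 40 (median 0.19), led by the scaffold Lat (8.04, 8.15 and 8.52) and the nitric oxide receptor subunit Gucy1b1 (6.95, 6.67 and 7.42). Megakaryocyte transcription factors gave 13 higher and 6 lower of 19 (median 0.14), and granule biogenesis genes 15 higher and 6 lower of 21 (median 0.12). Both of these lists lay nearer to the 50.6% of all genes than the cytoskeletal and signalling lists did.

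These platelet lists are read against a trend of the difference with signal. Over all genes the median was 0.00, but it was 0.04 and 0.10 in the 2 groups of highest signal when genes were cut by signal into groups of equal size. After a curve fitted to that trend was subtracted, the medians were 0.14 for receptors, 0.21 for alpha-granule cargo and 0.16 for the cytoskeleton. They remained above 0 under every scaling tried. The part of the trend in the list medians was not otherwise tested.

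**Figure D2:**
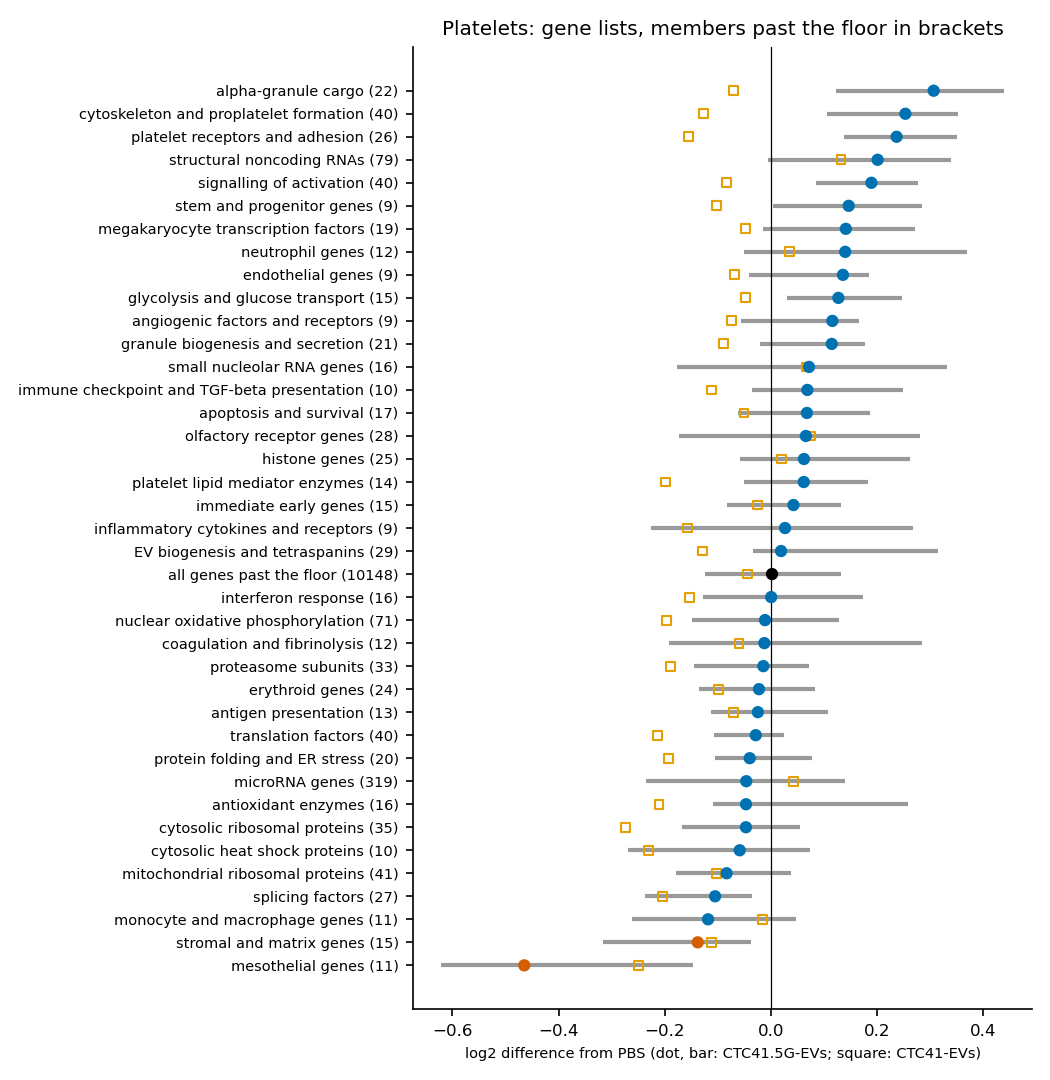
Each row is a gene list with at least 9 members past the floor (number in brackets); the dot is the median log2 difference, CTC41.5G-EVs minus PBS, the bar its quartiles, and the open square the median for CTC41-EVs minus PBS. Alpha-granule cargo (0.31), cytoskeleton (0.25) and receptors (0.24) are at the top, and mesothelial genes, a list added after the values were seen (orange), at the bottom (-0.46).

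Iron storage and redox genes stood out singly. Fth1, the ferritin heavy chain, measured 8.21, 8.47 and 9.09, a difference of 0.88 with CTC41.5G-EVs as the high array. The light chain Ftl1 measured 9.61, 9.65 and 10.08, a difference of 0.47. Against these, the heavy chain pseudogene Fth-ps2 measured 5.49, 5.08 and 4.29, among the lowest differences at -1.21. Signals of such near-identical copies are uncertain, since their probes may bind each other's RNA.

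Prdx3, a mitochondrial peroxidase, measured 4.96, 5.02 and 5.71, well apart from both other arrays. Of 16 antioxidant genes past the floor, 7 were higher and 9 lower, so the list as a whole had no direction (median -0.05). Mif, the cytokine macrophage migration inhibitory factor, measured 9.24, 9.43 and 10.07, a difference of 0.82. Dusp1, a phosphatase that turns off MAP kinases, measured 6.81, 6.83 and 7.46. For Mif and Dusp1 the PBS and CTC41-EVs platelet arrays were close, and the progenitor pair differed in the same direction, by 0.91 and 1.21. In progenitors CTC41-EVs was also above PBS, with Mif at 6.37, 6.94 and 7.28 and Dusp1 at 7.07, 7.82 and 8.28. Of all genes past the progenitor floor, 75.1% were above 0 with CTC41.5G-EVs. The other 14 immediate early genes past the floor were all nearer than 1.5-fold, for example Atf3 at 4.95, 4.93 and 5.17.

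Ngp, a granule protein of developing neutrophils, measured 4.38, 5.08 and 5.2, with PBS the low array. Its PBS signal was below the floor, and the mean level over 24 neutrophil genes was 4.76, 4.84 and 4.91, with 14 higher and 10 lower. Camp, another neutrophil granule gene, measured 5.85, 6.08 and 5.77 and did not share the order. S100a8 measured 5.97, 5.90 and 6.29.

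Among lower protein-coding genes, several are known from tissue lining, connective tissue or cavity macrophages. Prg4, lubricin, measured 6.01, 5.86 and 4.96, a difference of -1.05 with CTC41.5G-EVs alone as the low array. Alox15, a lipoxygenase known from resident peritoneal macrophages, measured 7.39, 6.83 and 6.42. Igfbp5, a secreted binding protein of insulin-like growth factors, measured 7.67, 7.17 and 6.79, and Dcn, the matrix proteoglycan decorin, 8.14, 7.62 and 7.50. On the latter 3 genes PBS was the high array and CTC41-EVs lay between. Lists of such genes were drawn up after these values were seen and are given as description only. Over all genes past the floor 49.4% were lower by sign and 1.28% by 1.5-fold. Of 11 mesothelial genes past the floor, 10 were lower (median -0.46), 3 of them by 1.5-fold. Upk3b (6.89, 6.60 and 6.45) and Krt19 (5.86, 5.68 and 5.35) were lower by less. Over all 15 measured mesothelial genes the mean level was 5.54, 5.35 and 5.17, with 14 lower. Of 15 stromal and matrix genes past the floor, 14 were lower (median -0.14), but Col1a1 (5.93, 5.85 and 5.93) and Col3a1 (5.72, 5.71 and 5.71) were nearly level. Of 4 genes of serosal cavity macrophages past the floor, 4 were lower. The 2 of them lower by 1.5-fold were Prg4 and Alox15, and Prg4 is also counted in the mesothelial list. The counts thus include genes that prompted the lists, and they support nothing beyond those genes. The part of such cells in these values was not tested.

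Rsad2, the interferon-induced antiviral protein viperin, measured 8.43, 7.69 and 7.58, with both EV arrays low. The interferon list as a whole was evenly split, 8 higher and 8 lower of 16, and Ifitm2 (7.63, 7.43 and 8.0) was the other way. Lgals1, galectin-1, measured 9.12, 8.20 and 8.45, and Bcl2a1a, a survival gene of the Bcl2 family, 6.62, 5.41 and 5.84. On both, CTC41-EVs was lower still than CTC41.5G-EVs. The respiratory genes Atp5mpl (8.58, 7.73 and 7.78), Cycs (6.57, 5.74 and 5.87) and Uqcrb (7.13, 6.33 and 6.5) showed the same pattern of a high PBS array. Across 71 oxidative phosphorylation genes, however, 34 were higher and 37 lower, and the ATP synthase subunit Atp5e was 1.5-fold higher (5.94, 5.87 and 6.60).

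Splicing factors were lower by sign in 24 of 27 genes (median -0.10), 0 of them by 1.5-fold, beside 49.4% and 1.28% of all genes past the floor. Snrpf, a core snRNP protein, measured 5.68, 5.48 and 5.13, and Hnrnpa3 measured 7.85, 7.11 and 7.39. For CTC41-EVs minus PBS the median of this list was -0.20. Cytosolic ribosomal proteins gave 14 higher and 21 lower of 35 (median -0.05), proteasome subunits 15 and 18 of 33, and translation factors 14 and 26 of 40, with Eif3m lower past 1.5-fold (5.87, 4.99 and 5.16). Glycolysis genes were higher in 12 of 15 (median 0.13), beside 50.6% of all genes, Pgk1 being an exception at 6.83, 6.44 and 6.33.

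**Figure D3:**
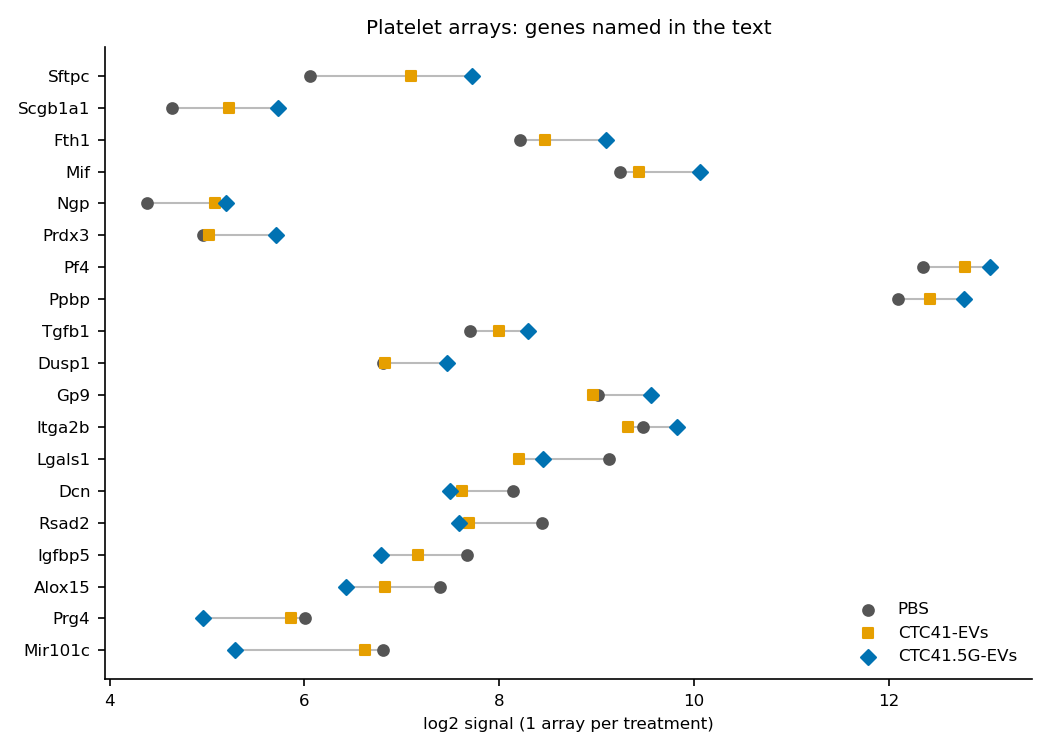
Log2 signal of 19 named genes on the PBS (circle), CTC41-EVs (square) and CTC41.5G-EVs (diamond) platelet arrays, 1 array per treatment and no error bars. Prdx3, Dusp1, Prg4 and Mir101c have PBS and CTC41-EVs close together with CTC41.5G-EVs apart, while on Lgals1, Rsad2 and Ngp the PBS array is the one apart.

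The third array placed most lower genes nearer to CTC41.5G-EVs than to PBS. Of the 130 lower genes, CTC41-EVs was nearer to CTC41.5G-EVs for 77 and nearer to PBS for 53, and 38 were also at least 1.5-fold below PBS with CTC41-EVs. Of the 78 higher genes it was nearer to PBS for 50 and nearer to CTC41.5G-EVs for 28, and 11 were 1.5-fold above PBS on both EV arrays. These counts share the PBS array and describe the 3 arrays only. Among the 63 lower pseudogenes, the third array was nearer to CTC41.5G-EVs for 40. Gm14681 (7.58, 6.57 and 6.49) was of that kind. Gm12040 (5.59, 5.62 and 4.43) and Gm5644 (6.08, 6.02 and 5.06) were not.

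Fewer genes set the CTC41.5G-EVs array apart from both others. It lay at least 1.5-fold above both the PBS and the CTC41-EVs array for 30 genes (0.296%) and below both for 29 (0.286%). Protein-coding genes were 11 of the former and 2 of the latter. Prg4 (-1.05) and the aminopeptidase gene Aopep (-0.63) were the lower ones, and Prdx3, Dusp1, Atp5e and Irgm2, an immunity-related GTPase (4.80, 4.91 and 5.54), were among the higher ones. Mir101c lay furthest below both and Gm26332 furthest above both.

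Gm26332 belongs to a run of small nucleolar RNA genes that RefSeq places between Ipw and Snrpn, where the Snord116 copies of the imprinted Prader-Willi region lie. Small nucleolar RNAs of the C/D box class guide chemical marking of other RNAs, and those of this region are processed from introns of 1 long paternal transcript. The run was looked at after its members were seen among the highest genes. Of 72 such genes in RefSeq, 37 had probes of their own here, with 23 distinct sets of values because identical repeats share them.

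Gm26332, with Gm23953, Gm22863 and Gm24618 at identical values, measured 4.48, 4.66 and 5.56. Gm26032 (shared by 4 genes) measured 4.55, 4.92 and 5.58, Gm24264 4.54, 4.76 and 5.54, and Gm23862 4.94, 4.89 and 5.77. The PBS and CTC41-EVs arrays were close and CTC41.5G-EVs was the high one. Over the 23 value sets the median level was 4.33, 4.49 and 4.93 and the median difference 0.60, with 20 higher and 3 lower, 12 and 1 of them by 1.5-fold. Without a floor, 572 of all 30428 genes were 1.5-fold higher and 506 lower. Of genes past the floor, 50.6% were higher by sign. On the PBS array 19 of the 23 were below the floor. Of the 18 small nucleolar RNA genes past the floor and 1.5-fold higher, 15 were of this run, but many of these passed the floor only through the high CTC41.5G-EVs array, so that count supports nothing. Gm22915 (4.72, 5.30 and 5.68) was one of the others.

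In progenitors, where 18 of the 23 passed the floor, 23 of 23 value sets were higher with CTC41.5G-EVs than with PBS (median 0.57), beside 75.1% of all genes past the progenitor floor. There 11 of 23 reached 1.5-fold higher, beside 6.18% of all genes past the progenitor floor. Without a floor, 969 of 30428 genes did, and the count past the floor depended on scaling. The progenitor CTC41-EVs array was also above PBS for 21 of the 23 (median 0.37) and at or above CTC41.5G-EVs for 6, so the higher level in progenitors was shared by both EV arrays. The run of 134 genes on the other side of Ipw, towards Ube3a, was mostly below the platelet floor: 1 of 133 measured genes passed it, at 6.75, 7.12 and 6.47. Over its 55 value sets, 38 were higher with CTC41.5G-EVs and 17 lower (median 0.19). Of them 12 were 1.5-fold higher and 2 lower, beside 572 and 506 of all 30428 platelet genes without a floor. On these value sets the CTC41-EVs array was the high one, with median levels of 2.19, 2.80 and 2.43. The long host transcript Snhg14 had a probe at 1.62, 1.73 and 1.69, far below the floor.

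**Figure D4:**
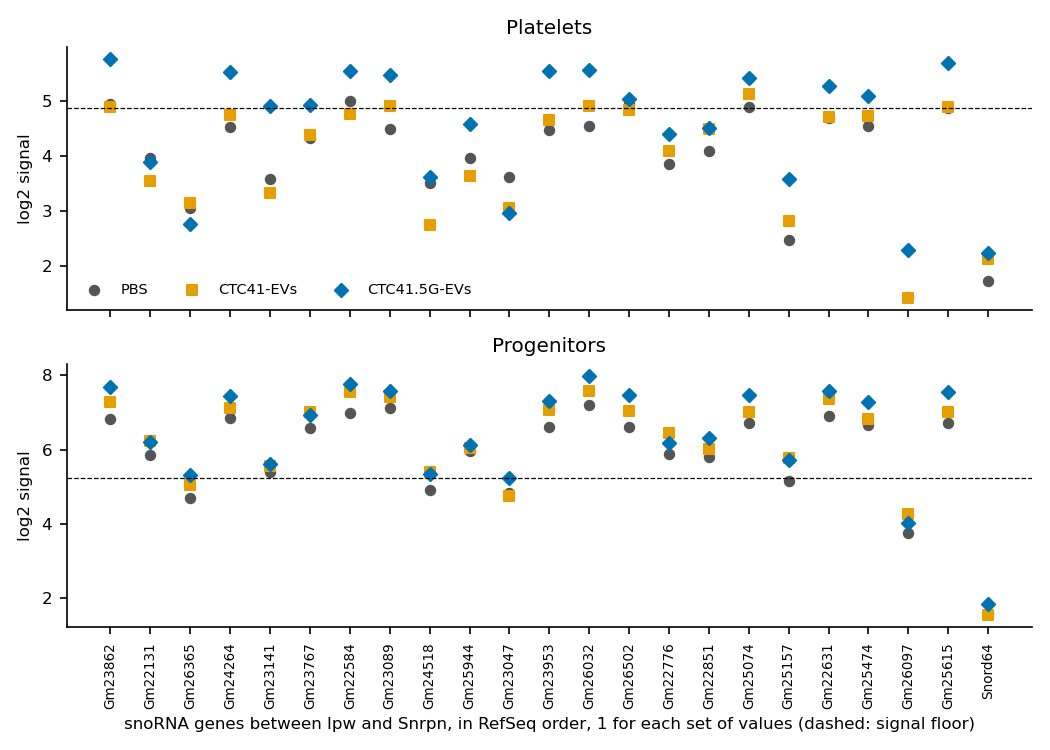
Log2 signal of the 23 distinct value sets of small nucleolar RNA genes between Ipw and Snrpn on the platelet (top) and progenitor (bottom) arrays, in RefSeq order; dashed lines are the signal floors of 4.88 and 5.23. CTC41.5G-EVs (diamond) is above PBS (circle) for 20 of 23 in platelets and 23 of 23 in progenitors. Of all genes past those floors, 50.6% and 75.1% are.

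Among other short RNAs, some were higher and some lower. Of 211 small nuclear RNA genes past the floor, 3 were 1.5-fold higher and 5 lower, beside 0.769% and 1.28% of all genes. Gm22155 had the lowest difference of these (-1.31), at 5.99, 4.64 and 4.67, with both EV arrays low. Rn7s1 and Rn7s2, copies of the 7SL RNA of the signal recognition particle with identical values, measured 12.85, 13.95 and 13.80, with both EV arrays high. Structural noncoding RNAs as a list gave 59 higher and 20 lower of 79 genes (median 0.20), beside 50.6% higher over all genes past the floor. The 79 genes held only 45 distinct value sets, so repeated values weigh in the count. The list was also higher for CTC41-EVs (median 0.13).

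MicroRNA genes past 1.5-fold numbered 6 higher and 12 lower, and 14 of these 18 had mature sequences in the RefSeq table for GRCm38.p6. The sources do not say whether a probe reads the precursor or the mature microRNA. Mir101c, the lowest gene of all, measured 6.80, 6.62 and 5.29, with CTC41.5G-EVs alone low, and 7.51 with PBS and 8.03 with CTC41.5G-EVs in progenitors. Its mature sequence is shown with the seed, bases 2 to 8, in capitals, since the seed pairs with targets. The related miR-101a-3p is shown with the stretch equal to miR-101c in capitals: it contains miR-101c whole, so its seed is shifted by 1 base.
mmu-miR-101c: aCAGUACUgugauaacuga
mmu-miR-101a-3p: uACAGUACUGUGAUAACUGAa
Mir101a was not analysed here, and Mir101b measured 2.04, 2.17 and 1.94, below the floor.

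The next microRNAs by size of difference among those with a sequence in the table are shown in the same way, with seeds in capitals, to let their targets be looked up.
mmu-miR-3088-5p: gCUAUGCAguuguucaugagcu
mmu-miR-3088-3p: uUCAUGAGcagcugcaaaggugu
mmu-miR-7067-5p: uGCAGGGGgugguugcacacgga
mmu-miR-7067-3p: uGAUUGCUucccuccccacag
mmu-miR-3097-5p: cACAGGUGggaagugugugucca
mmu-miR-3097-3p: cUCAGACCuuucuaccugucag
mmu-miR-1941-5p: aGGGAGAUgcugguacagaggcuu
mmu-miR-1941-3p: cAUCUUAGcaguaucucccau
mmu-miR-30e-5p: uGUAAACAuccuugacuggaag
mmu-miR-30e-3p: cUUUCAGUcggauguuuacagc
mmu-miR-6415: gAGCUUUUgagggccccaugca
Mir3088 measured 7.60, 7.27 and 6.71, Mir7067 6.04, 5.86 and 5.25, and Mir3097 6.65, 6.21 and 5.87. On all 3, PBS was the high array and CTC41.5G-EVs the low one. Mir30e, of the widely studied miR-30 family, measured 5.47, 5.52 and 4.77. Mir1941 was higher on both EV arrays, at 5.04, 5.97 and 5.79. Mir6415 was higher, at 4.87, 4.79 and 5.61, and Mir466f-1, the highest microRNA gene, measured 5.38, 5.56 and 6.39. The 22 mature sequences of the 14 genes held 22 distinct seeds, so no seed was shared between 2 of these genes. Over all 319 microRNA genes past the floor 137 were higher and 182 lower (median -0.05).

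The progenitor pair shares no array with the platelet pair and gave a second look at the same treatment in another cell type. There, 568 of 9184 genes (6.18%) were at least 1.5-fold higher and 71 (0.773%) lower, and 75.1% were above 0. After quantile normalization these counts were 245 and 158, and with the trend on signal subtracted 187 and 186, so the balance in progenitors depended on scaling. Of the 67 genes higher in platelets and past both floors, 55 (82.1%) were also above 0 in progenitors, beside 75.9% of all 7047 genes past both floors, and 24 (35.8%) were at least 1.5-fold higher. Of the 67 lower genes, 46 (68.7%) were above 0 in progenitors, thus on the other side, and 1 (1.49%) was 1.5-fold lower, the pseudogene Llph-ps1. Of the 24, 12 were small nucleolar RNA genes and 6 were protein-coding. All 12 were of the run between Ipw and Snrpn, where identical repeats share values. Many of that run passed the platelet floor only through the high CTC41.5G-EVs array, so the 35.8% supports nothing about them.

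The 6 protein-coding genes at least 1.5-fold higher in both cell types were Mif, Dusp1, Ppbp and the multicopy Y-linked genes Gm20865, Gm20925 and Gm21292. Ppbp measured 5.25 with PBS and 5.87 with CTC41.5G-EVs in progenitors. Fth1 was on the other side of 0 in progenitors (5.57 and 5.2), as was the copper chaperone Atox1, with platelet differences of 0.88 and 0.59 and progenitor differences of -0.37 and -0.60. Platelet receptor genes had a median of 0.11 in progenitors over 10 genes past both floors, near the 0.13 of all genes there. Cytosolic ribosomal proteins, at -0.05 in platelets, had a median of 0.70 in progenitors, with 30 of 32 higher. Of all genes past both floors, 75.9% were above 0 in progenitors, and the balance there depended on scaling, as given above.

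**Figure D5:**
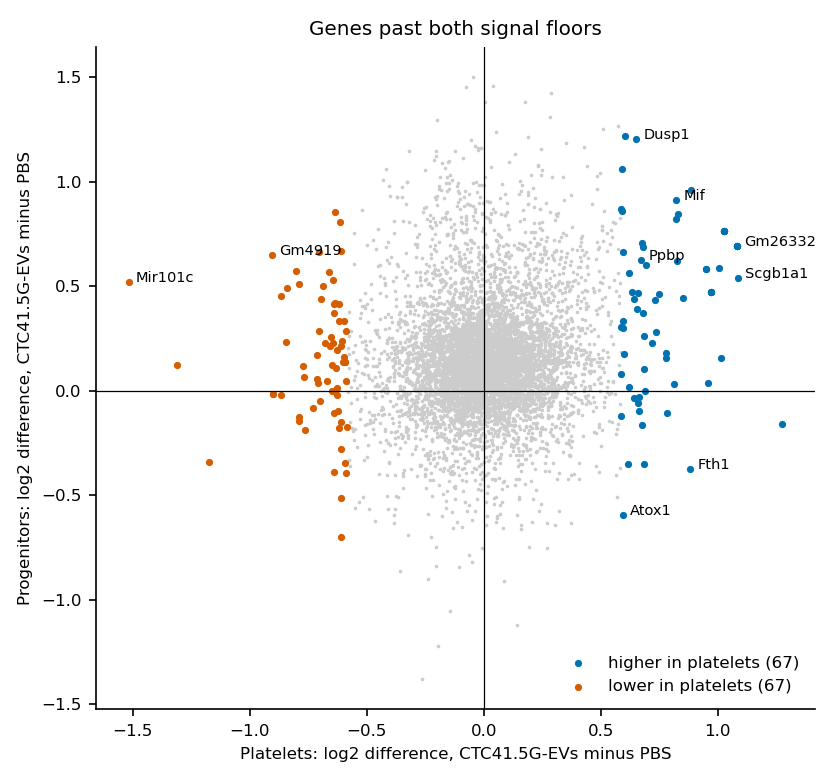
Each point is 1 of 7047 genes past both signal floors; the axes are the log2 difference, CTC41.5G-EVs minus PBS, in platelets (horizontal) and progenitors (vertical). Of the 67 genes higher in platelets (blue) 55 lie above 0 in progenitors, and of the 67 lower (orange) 46 do.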

How the data were processed

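The 6 arrays (Clariom D Mouse) held platelet or megakaryocyte progenitor RNA, 1 array per group of pooled mice. The deposited values are log2 signals; per the submitters' processing notes the authors used Affymetrix Expression Console 1.4.1.46. The design text names MAS5.0 instead, which leaves the scaling between arrays unclear. Values were used as deposited. No source names the genome build of the probes.

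Of 72688 probes, 30890 named 1 gene, 1860 several and 39938 none. Only the first kind entered, giving 30428 genes; 23104 probes were found in RefSeq (GRCm38.p6) through their Entrez number, and 829 symbols were brought up to date. For 355 genes with several probes the one with the highest mean was taken. Of all genes, 450 shared identical values with another.

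The signal floor was the 75th percentile of the probes' 3-array means (4.88; progenitors 5.23), and genes past it were counted at 1.5-fold. With 1 array per group there is no replicate spread, no error and no p-value; the number of arrays limits the precision. Named genes were the 15 highest and 15 lowest, the 10 furthest above and below both other platelet arrays, up to 5 per gene list, and markers of other blood cells; further members of the platelet lists, genes named for an exception and other genes past 1.5-fold were chosen after their values were seen. The members, the 43 lists and 5 added lists were chosen with earlier results of these data known. The counting was tested on simulated data. Alternatives covered scaling, the trend with signal, the floor, gene type, probes per gene and the fold. Python 3.11.15, numpy 2.4.6, pandas 2.3.3 and statsmodels 0.14.6 were used.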

Additional observations from a re-analysis of the deposited data

Results flagged for a closer look

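Gm4919, a pseudogene, was picked out because the same contrast went opposite ways in the 2 cell types. In platelets it measured 7.23, 7.34 and 6.33 on the PBS, CTC41-EVs and CTC41.5G-EVs arrays, a difference of -0.90. In progenitors it measured 5.07 with PBS and 5.72 with CTC41.5G-EVs, a difference of 0.65. With 1 array per group, the difference between the cell types was not tested.

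Probes that name several genes were outside the comparisons. Of 766 such probes past the platelet floor, 42 were at least 1.5-fold higher with CTC41.5G-EVs and 4 lower, with a median of 0.04. The 42 held 17 distinct sets of values. Of them, 19 named Gm26504 and Ipw, shared 1 set of values (4.76, 4.93 and 5.46), and had a progenitor difference of 0.76. Their PBS signal was below the floor. In all, 31 probes past the floor named Ipw, with 3 sets of values. All 31 were higher, by 0.22 to 0.70, and only the 19 reached 1.5-fold. Another 18 named multicopy genes that RefSeq places on the Y chromosome. Then 3 named haemoglobin genes: the beta-globin probe measured 12.29, 13.43 and 13.34, and an alpha-globin probe 12.71, 13.83 and 13.68, with PBS the low array. The mean level over 31 erythroid genes was 6.23, 6.14 and 6.18 on the same arrays; the part of red cell RNA in the globin values was not tested. The remaining 2 named Myl6 with Gm8894 (10.56, 11.05 and 11.41) and Toporsos with 2010003O02Rik (4.84, 5.92 and 5.73).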

How the results depend on the processing

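Of 523 values of the 62 named genes past 1.5-fold under 9 alternatives, 523 kept their sign and 510 stayed past 1.5-fold. Other floors and the restriction to protein-coding genes leave a gene's own difference unchanged, so agreement under these was fixed in advance. The mean over probes can change only genes with several probes. These totals therefore say little beyond the rescalings. No result reversed; medians near 0 of lists not described as leading can change sign. In the order higher, lower, above both other platelet arrays and below both (78, 130, 30 and 29 as reported), the counts were 179, 272, 54 and 70 with the floor at the 50th percentile, 24, 48, 8 and 4 at the 90th, 572, 506, 171 and 146 without a floor, 26, 35, 11 and 2 with protein-coding genes only, and 13, 9, 0 and 2 at 2-fold. With olfactory receptor centring, 45 lay below both, and 61 were higher and 173 lower. In progenitors (568 higher, 71 lower) the counts were 245 and 158 after quantile normalization, 377 and 109 with olfactory centring, 187 and 186 with the signal trend subtracted, 705 and 134 and 447 and 30 with floors at the 50th and 90th percentile, 969 and 265 without a floor, 150 and 15 with protein-coding genes only and 58 and 7 at 2-fold. List medians moved from 0.24 to 0.19 (olfactory centring), 0.14 (trend subtracted) and 0.29 (floor at the 90th percentile) for platelet receptors. For alpha-granule cargo they moved from 0.31 to 0.25 (quantile), 0.26 (olfactory) and 0.21 (trend), and for the cytoskeleton from 0.25 to 0.21, 0.20 and 0.16. For structural noncoding RNAs they moved from 0.20 to 0.15 (olfactory), 0.31 (floor at the 90th percentile) and 0.26 (mean over probes). The median of the small nucleolar RNA run was 0.54 with olfactory centring and 0.58 to 0.60 under the other scalings. Counting genes with identical values once, chosen after seeing the data, gave 69 higher and 128 lower. Fewer genes are counted by construction under higher floors, gene type and fold; for the other settings the cause was not tested. No paired analysis was possible because each group held 1 array. Signals near background limit the size of differences of dim genes.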

Other observations

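Genes that RefSeq places on the Y chromosome were looked at after the probes with several names had been seen. Of 34 past the platelet floor (32 distinct sets of values), 32 were higher with CTC41.5G-EVs than with PBS and 2 lower, with a median of 0.32, and 3 were at least 1.5-fold higher. Over all genes past the floor 50.6% were higher and 0.769% by 1.5-fold. The median was 0.27 to 0.31 under the 4 other scalings tried, and -0.08 for CTC41-EVs minus PBS. In progenitors the same genes had a median of 0.71 with CTC41.5G-EVs, beside 0.13 and 75.1% above 0 over all genes past the progenitor floor, and 0.62 with CTC41-EVs. Most are multicopy genes with Gm names, for example Gm21292 (5.78, 5.78 and 6.46) and Gm20865 (5.23, 5.53 and 5.84). Their probes name 1 gene each, but whether these tell similar copies apart was not tested. The single-copy Y genes Kdm5d (3.75, 3.46 and 3.82), Eif2s3y (3.25, 3.45 and 3.55) and Uty (4.46, 4.81 and 5.07) had means below the floor. Sry, past the floor, measured 6.47, 6.41 and 6.61, a difference of 0.14, and differed by -0.01 in progenitors. Xist, the X-inactivation transcript, measured 4.88, 4.69 and 4.29 in platelets, also at or below the floor, and 5.08 with PBS and 4.24 with CTC41.5G-EVs in progenitors. The labels do not give the sex of the mice.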
